A study of Arabidopsis thaliana with 6 samples.

Results

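Expansins and xyloglucan endotransglucosylase/hydrolases (XTH) are the best known protein families that loosen plant cell walls. The genes of both families were taken from a RefSeq gene table as the protein-coding genes whose symbol or synonym was EXPA, EXPB, EXLA, EXLB or XTH followed by a number. This gave 69 of 27444 nuclear protein-coding genes of Arabidopsis thaliana, of which 36 were expansin or expansin-like genes (24 EXPA, 6 EXPB, 3 EXLA and 3 EXLB) and 33 were XTH genes. A gene was counted for a line where a peak summit of SEPALLATA3 (SEP3) chromatin immunoprecipitation fell inside it or no more than 3 kb from either end, a window that can hold the peaks of neighbouring genes as well.

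Growing plant cells are held by a wall of cellulose fibrils tied together by xyloglucan and embedded in pectin. Expansins loosen this network without cutting it, at the acid pH that proton pumps give the wall, while XTH enzymes cut xyloglucan chains and join the cut end to another chain or to water. Petals, stamen filaments and carpels reach their final size largely by such cell expansion, and SEP3 is the MADS-domain partner with which the floral organ identity proteins form their DNA-bound complexes.

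SEP3 binding was mapped in inflorescences from about 1 g of tissue per sample; the plants grew in long days (16 h light, 8 h dark) at 22 °C. All plants were of the sep1,2,3 background and carried a rescue transgene, either pSEP3:SEP3wt (wild-type SEP3, called SEP3wt here) or pSEP3:SEP3tet (a SEP3 deficient in tetramerization, called SEP3tet); the prefix pSEP3 is read as the SEP3 promoter. Native antibody against SEP3 was used for 2 samples of each line and pre-immune serum for 1 mock sample. The labels do not say whether a line descends from a single insertion, nor the age of the plants, and peak lists hold no expression with which to check the tissue. The comparison asks which of these genes are occupied by wild-type SEP3 and by SEP3 deficient in tetramerization. The values compared were 1 peak list per line, with 2225 peaks in SEP3wt and 3601 in SEP3tet. Sequencing depth is unknown, the mock signal was not analysed here, and no value per replicate was held, so no difference between the lines can be set against the spread between replicates and no test was run. The fold of a peak is the authors' own enrichment over background at the summit, and its −log10 q is that of their peak caller; both rank a peak within its own list. In whole inflorescences, strong binding in few cells and weak binding in many cannot be told apart.

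With all peaks and the 3 kb window, every wall-loosening gene with a SEP3wt summit also had a SEP3tet summit, and 9 more had one in SEP3tet alone. Such overlap was common over all protein-coding genes, where 3401 of the 3759 with a SEP3wt summit also had a SEP3tet summit. The full overlap at the members depended on the setting. With narrower windows, the nearest gene only, stronger peaks only or lists of equal length, 1 or 2 genes were SEP3wt-only. For lists of equal length this was 1 member (1.45%), beside 3.14% of all genes. For the other settings no share of all genes called in SEP3wt alone is given, so those counts are not set against the genome. In SEP3wt 16 of 69 members (23.2%, exact 95% interval 13.9 to 34.9) had a summit in the window, beside 13.7% of all protein-coding genes. In SEP3tet 25 members (36.2%, 25 to 48.7) had one, beside 21.2% of all genes. The 16 members of SEP3wt were called in both lines, beside 12.4% of all genes, and the 9 SEP3tet-only members (13.0%) stood beside 8.79%. No member was called in SEP3wt alone, which was true of 1.30% of all genes, and for 0 of 69 the exact interval reaches 5.21%. These intervals cover counting error over genes only. They treat genes as independent, although neighbours can share a peak, as XTH22 with XTH25 and EXLA1 with EXLA3, so they may be too narrow.

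Of the genes called in SEP3tet alone, most were expansins with all peaks counted, but not among stronger peaks. Among expansins, 7 of 36 genes (19.4%, 8.19 to 36) had a SEP3wt summit and 14 (38.9%, 23.1 to 56.5) a SEP3tet summit. Among XTH genes, 9 of 33 (27.3%, 13.3 to 45.5) had a SEP3wt and 11 (33.3%, 18 to 51.8) a SEP3tet summit. The 9 SEP3tet-only genes were thus 7 expansins (19.4% of the family) and 2 XTH genes (6.06%), beside 8.79% of all genes. With the SEP3tet list cut to its strongest peaks, as many as SEP3wt had, 2 expansins and 2 XTH genes of these 9 remained. When a −log10 q of 10 or more was required, the SEP3tet-only genes were EXPA9 and XTH33. EXPA9 was called in both lines with all peaks counted, so of the 9 only XTH33 remained. No share of all genes called in SEP3tet alone is given for that threshold. The intervals of the families overlapped widely in each line, and the difference between families was not tested.

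**Figure D1:**
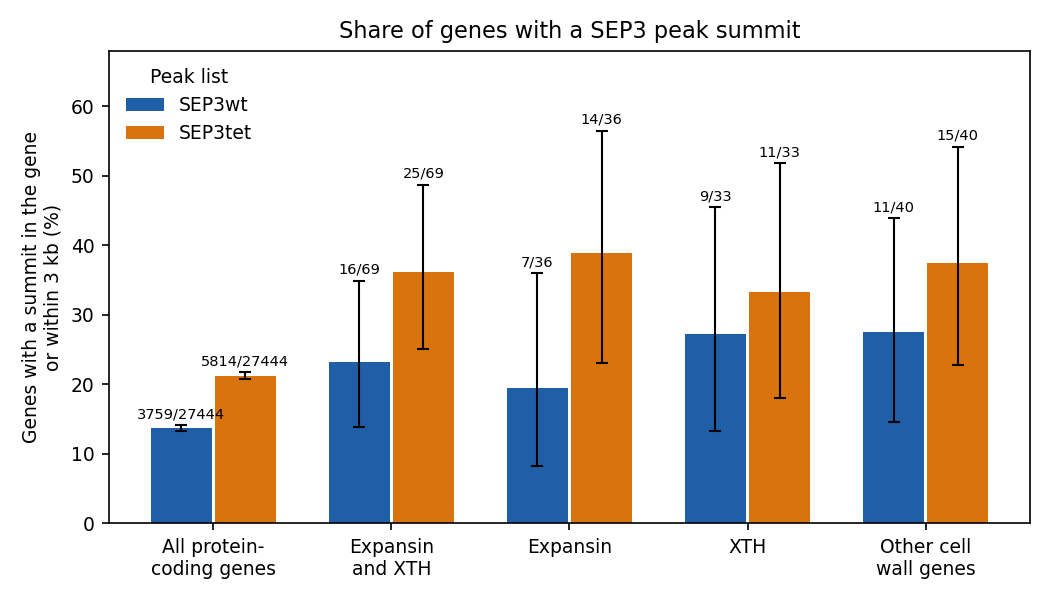
Share of genes (%) with a peak summit in the gene or within 3 kb, for all protein-coding genes, the 69 expansin and XTH genes, each family, and 40 other cell wall genes. Bars are the SEP3wt and SEP3tet peak lists, bars on them are exact 95% intervals over genes, and the numbers are genes with a summit over genes in the group; the expansin bars stand at 19.4% and 38.9%, the XTH bars at 27.3% and 33.3%.

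These counts depended on how close and how strong a peak had to be. With 1 kb to either side of the gene, 9 members had a SEP3wt summit (beside 7.79% of all genes) and 12 a SEP3tet summit (beside 12.3%), which was 13.0% and 17.4% of the members. When each summit was given to its nearest gene only, 9 members remained in SEP3wt (13.0%, beside 6.74% of all genes) and 13 in SEP3tet (18.8%, beside 10.6%). Summits in the gene itself were found for 6 members in SEP3wt (8.70%, beside 3.11% of all genes) and 7 in SEP3tet (10.1%, beside 4.53%). With peaks of −log10 q of at least 10, 8 members were counted in each line (11.6%), beside 4.60% of all genes in SEP3wt and 7.76% in SEP3tet. At this threshold 6 genes were called in both lines, beside 3.82% of all genes, namely XTH22, XTH25, XTH27, XTH28, EXPA3 and EXPA18.

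The strongest peak of the XTH genes covered XTH22 in both lines. XTH22, known as TCH4 (AT5G57560), is a classical touch-inducible gene that encodes an enzyme which joins xyloglucan chains. Its SEP3wt peak (TAIR10, chromosome 5, 23306532 to 23308314) had a fold of 6.76 and a −log10 q of 37.1, above 95.5% of the folds of its list. The SEP3tet peak (23306529 to 23308308) had a fold of 8.71 and a −log10 q of 38.6, above 98.1% of its list. The edges of these peaks differed by only a few bases and the summits by 6 bp. Both were wide, at 1783 and 1780 bp, and began outside the gene, with the summit 0.46 kb (SEP3wt) and 0.45 kb (SEP3tet) inside it from its nearer end.

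The same summits counted for XTH25 (AT5G57550), the neighbour of XTH22, at 1.03 kb from that gene in SEP3wt and 1.02 kb in SEP3tet. XTH12 and XTH13 lie in the same gene cluster and had no summit in the window; for XTH13 this same peak lay 3.37 kb away in SEP3wt and 3.36 kb away in SEP3tet. XTH25 had no other summit, so the cluster of 4 XTH genes held a single peak per line, over XTH22. Without peaks wider than 1 kb, a setting chosen after the peaks were seen, neither gene was called, and 12 members remained in SEP3wt (beside 12.8% of all genes) and 23 in SEP3tet (beside 20.6%).

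XTH28 had 2 narrower peaks in each line. XTH28 (AT1G14720) encodes an enzyme that is needed for stamen filaments to grow to their full length. The peak in its gene body reached a fold of 4.52 in SEP3wt (chromosome 1, 5067327 to 5067681; −log10 q 11.6) and 7.46 in SEP3tet (5067215 to 5067744; −log10 q 27.6), with the summit 0.99 and 0.95 kb from the nearer gene end. A second peak lay 2.10 kb (SEP3wt) and 2.06 kb (SEP3tet) from the gene on its higher-coordinate side, with folds of 4.03 and 5.92. All 4 summits were nearer to XTH28 than to any other protein-coding gene. Within their lists the gene-body peaks stood above 77.5% (SEP3wt) and 95.5% (SEP3tet) of folds.

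XTH27 was the member with the most summits, 3 in each line. XTH27 (AT2G01850), also named EXGT-A3, encodes an XTH with a role in the formation of leaf veins. Peaks lay on the lower-coordinate side of the gene, in its body and just beyond its other end, at 1.80 kb, inside, and 0.29 kb in SEP3wt. Their folds in that order were 4.14, 4.12 and 4.46 in SEP3wt (gene-body peak at chromosome 2, 386108 to 386506). In SEP3tet the folds were 6.11, 6.40 and 5.14 (gene-body peak at 386109 to 386575). The 3 peaks of each line were thus of similar fold, and each overlapped its counterpart in the other line with summits 9 to 36 bp apart. The last of these peaks lies between XTH27 and EMB975 at nearly equal distances, 0.29 kb from each in SEP3wt.

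The other XTH genes called in both lines had weaker peaks, most of them outside the gene. XTH24 (AT4G30270), first described as the meristem-expressed gene MERI5, had a peak 1.67 kb away in SEP3wt (chromosome 4, 14822160 to 14822383; fold 3.92) that overlapped a SEP3tet peak of fold 3.17. It also had the only SEP3wt peak of an XTH gene without a SEP3tet overlap, inside the gene 0.11 kb from its end (14819242 to 14819722; fold 3.65, −log10 q 7.19). XTH18 and XTH19, its neighbours on the chromosome, had no summit in the window.

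XTH7 (AT4G37800) had a shared peak 0.96 kb away in SEP3wt and 0.95 kb in SEP3tet, with folds of 3.27 and 4.04, and a further weak SEP3tet peak of fold 2.74 on its other side. At XTH15 (AT4G14130), which is known from the growth response to shade, a shared peak lay 1.62 kb away in SEP3wt (fold 2.89) and 1.63 kb in SEP3tet (fold 3.41). XTH8 (AT1G11545) was counted through a peak 1.06 kb from it, with folds of 3.65 in SEP3wt and 4.23 in SEP3tet, whose summits differed by 1 bp. That peak lay nearer to AT1G11560, at 0.17 kb in SEP3wt. XTH6 (AT5G65730) was counted through a peak with its summit in the body of AT5G65740, 0.95 kb away in SEP3wt (fold 2.56) and 0.93 kb in SEP3tet (fold 3.89). XTH7 and XTH15 were thus themselves the nearest genes of their peaks, whereas XTH8 and XTH6 were not.

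XTH9 and XTH33 had summits in SEP3tet only. XTH9 (AT4G03210), known for expression in shoot apices, had a peak of 721 bp across its lower-coordinate end (chromosome 4, 1415132 to 1415852; fold 4.18, −log10 q 8.83) with the summit 0.06 kb inside the gene. XTH33 (AT1G10550) had a peak 0.64 kb from the gene (chromosome 1, 3481552 to 3481808; fold 4.52, −log10 q 10.2) and a weaker one of fold 2.74 on its other side, in the body of NAT8. The stronger peak of each stood above 64.3% (XTH9) and 71.5% (XTH33) of SEP3tet folds.

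**Figure D2:**
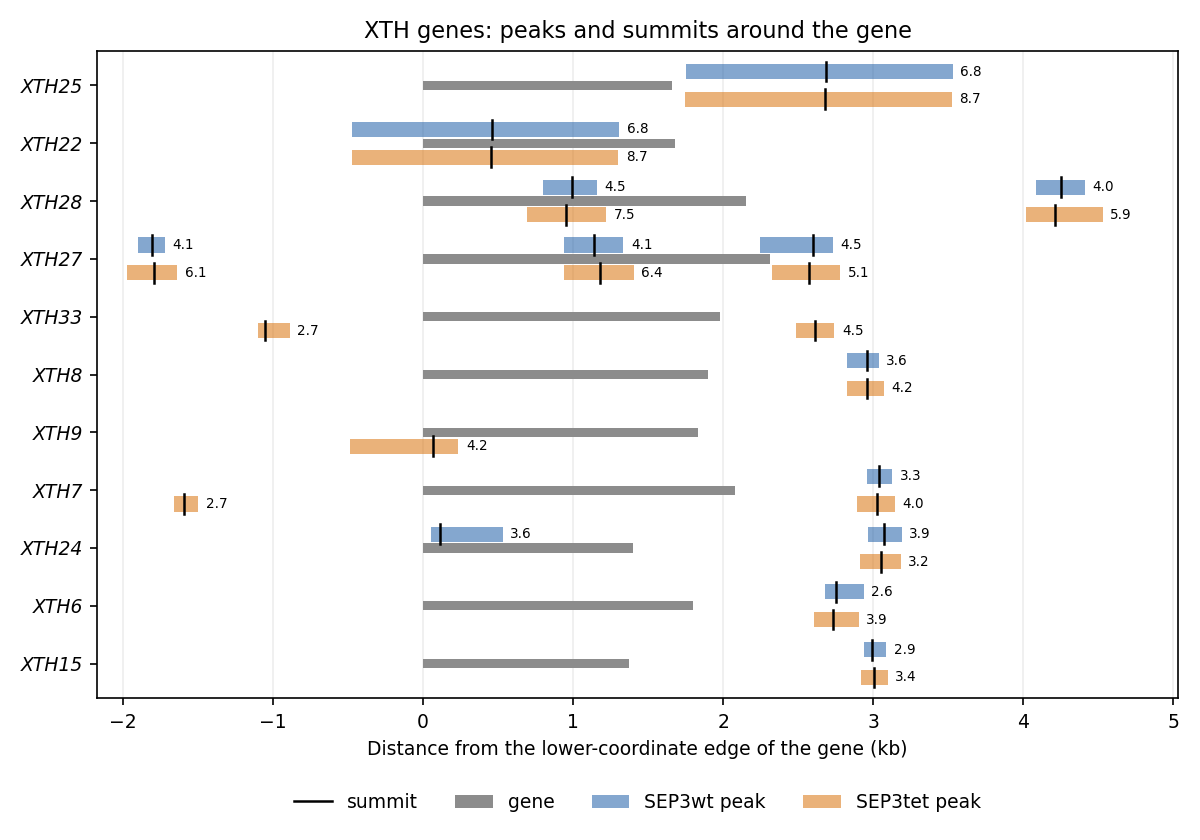
Peaks around the 11 XTH genes with a summit, drawn in kb from the lower-coordinate end of each gene. Grey bars are genes, blue and orange bars are SEP3wt and SEP3tet peaks, black ticks are summits and the numbers are the authors' fold enrichments; the wide XTH22 peak (folds 6.76 and 8.71) is also the peak drawn for XTH25, and XTH27 has 3 peaks per line.

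Among expansins, EXPA9 was the only EXPA gene with a shared peak in its own body. EXPA9 (AT5G02260) gave folds of 3.65 in SEP3wt (chromosome 5, 464116 to 464280; −log10 q 7.19) and 5.29 in SEP3tet (464053 to 464332; −log10 q 14.4). The summits lay 4 bp apart, 1.07 kb inside the gene from its nearer end. The SEP3tet peak stood above 82.5% of the folds of its list and the SEP3wt peak above 58.7%.

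EXLA1 (AT3G45970), an expansin-like gene, was covered by a wide peak in SEP3wt and by 2 peaks in SEP3tet. Expansin-like A and B proteins resemble expansins in sequence, but wall-loosening activity has not been established for them. The SEP3wt peak was 1656 bp wide (chromosome 3, 16896307 to 16897962) with a fold of 4.46. The SEP3tet peaks were 406 and 1151 bp wide (16896257 to 16896662 and 16896840 to 16897990), with folds of 2.78 and 3.27. In the SEP3tet list these were low values, above 10.1% and 34.2% of folds, while the SEP3wt peak stood above 76.8% of its list. The neighbour EXLA3 (AT3G45960) was counted only through these summits, 2.86 kb away in SEP3wt and 2.19 and 2.93 kb away in SEP3tet.

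EXPA3, EXPA18 and EXPA13 were called in both lines through peaks 1 to 3 kb away that lay closer to other genes. EXPA3 (AT2G37640) had the highest fold of any expansin in SEP3tet, 5.72, beside 4.24 in SEP3wt (chromosome 2, 15784272 to 15784698). The summit lay 2.91 kb from EXPA3 but 1.13 kb from AS1, which encodes a MYB protein of leaf development. EXPA18 (AT1G62980), a root hair expansin, had folds of 4.46 in SEP3wt (chromosome 1, 23335546 to 23335863) and 5.58 in SEP3tet, with summits 2.45 and 2.42 kb away and nearest to AT1G62981. EXPA13 (AT3G03220) had folds of 3.76 and 4.37 from summits 2.40 and 2.39 kb away, nearest to AT3G03210. These 3 genes had no other summit.

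EXPA5 (AT3G29030), an expansin of leaf and stem growth, was the expansin with peaks on either side. On the lower-coordinate side a shared peak lay 1.72 kb away in SEP3wt (fold 3.27) and 1.71 kb in SEP3tet (fold 4.23), and its summit was within 0.10 kb of MYB110. On the other side, 0.39 kb from EXPA5 itself, SEP3wt had a peak of 129 bp without a SEP3tet overlap (chromosome 3, 11013743 to 11013871). That peak was weak, with a fold of 2.56 and a −log10 q of 2.12, above 6.9% of the SEP3wt folds.

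The 7 expansins with summits in SEP3tet only had peaks with folds of 2.78 to 3.65, up to the median of that list (3.65), and 3 of them were themselves the nearest gene. EXPA6 (AT2G28950) had 2 peaks in its body, with folds of 2.98 and 3.65 (chromosome 2, 12431527 to 12431669 and 12432033 to 12432471). EXPA10 (AT1G26770), an expansin of leaf growth and of the pedicel abscission zone, had a peak of 145 bp only 0.16 kb from the gene (chromosome 1, 9259219 to 9259363; fold 3.22, −log10 q 4.67). EXPA15 (AT2G03090) had a peak 1.02 kb away with a fold of 2.93. Peaks nearer to other genes counted for EXPB4 (fold 3.36), EXPB5 (2.83), EXPA21 (2.78) and EXLB3 (3.17). EXLB3, listed as PNP-A (AT2G18660), encodes a plant natriuretic peptide known from water and ion balance rather than from wall loosening.

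The strongest SEP3tet fold of the 9 SEP3tet-only members had a median of 3.22 (2.78 to 4.52), and that of the 16 members called in both lines one of 4.30 (3.17 to 8.71). Over all genes the same medians were 3.27 for SEP3tet-only genes and 4.57 for genes called in both. The members thus stood close to all genes in either class by SEP3tet fold. By SEP3wt fold, the median of the members called in both lines was 4.08, beside 3.69 for all such genes, which was not tested. When the SEP3tet list was cut to its 2225 peaks of highest −log10 q, the size of the SEP3wt list, 4 members remained SEP3tet-only, beside 4.07% of all genes. These were EXPA6, EXPB4, XTH9 and XTH33, while XTH24 became SEP3wt-only, beside 3.14% of all genes.

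**Figure D3:**
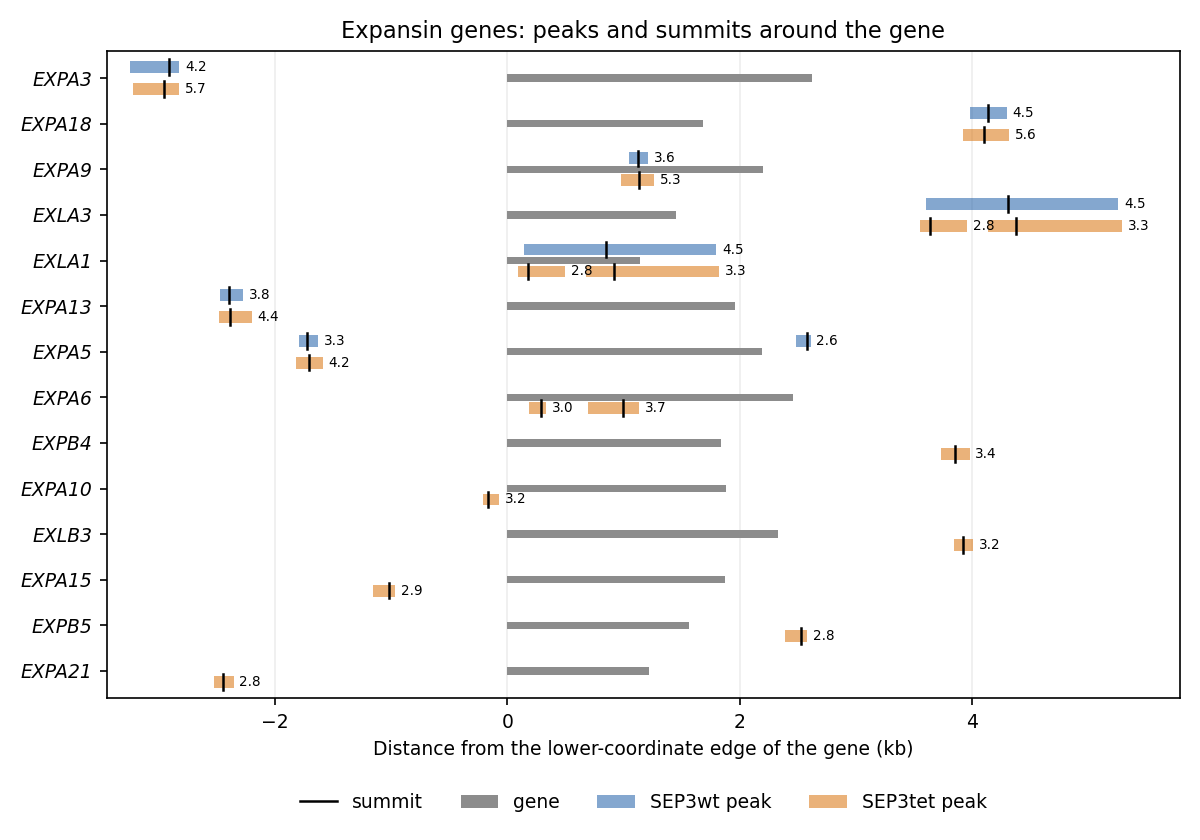
Peaks around the 14 expansin and expansin-like genes with a summit, drawn in kb from the lower-coordinate end of each gene. Grey bars are genes, blue and orange bars are SEP3wt and SEP3tet peaks, black ticks are summits and the numbers are the authors' fold enrichments; EXPA9, EXLA1 and EXPA6 hold summits in the gene itself, and 7 genes have orange peaks alone.

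**Figure D4:**
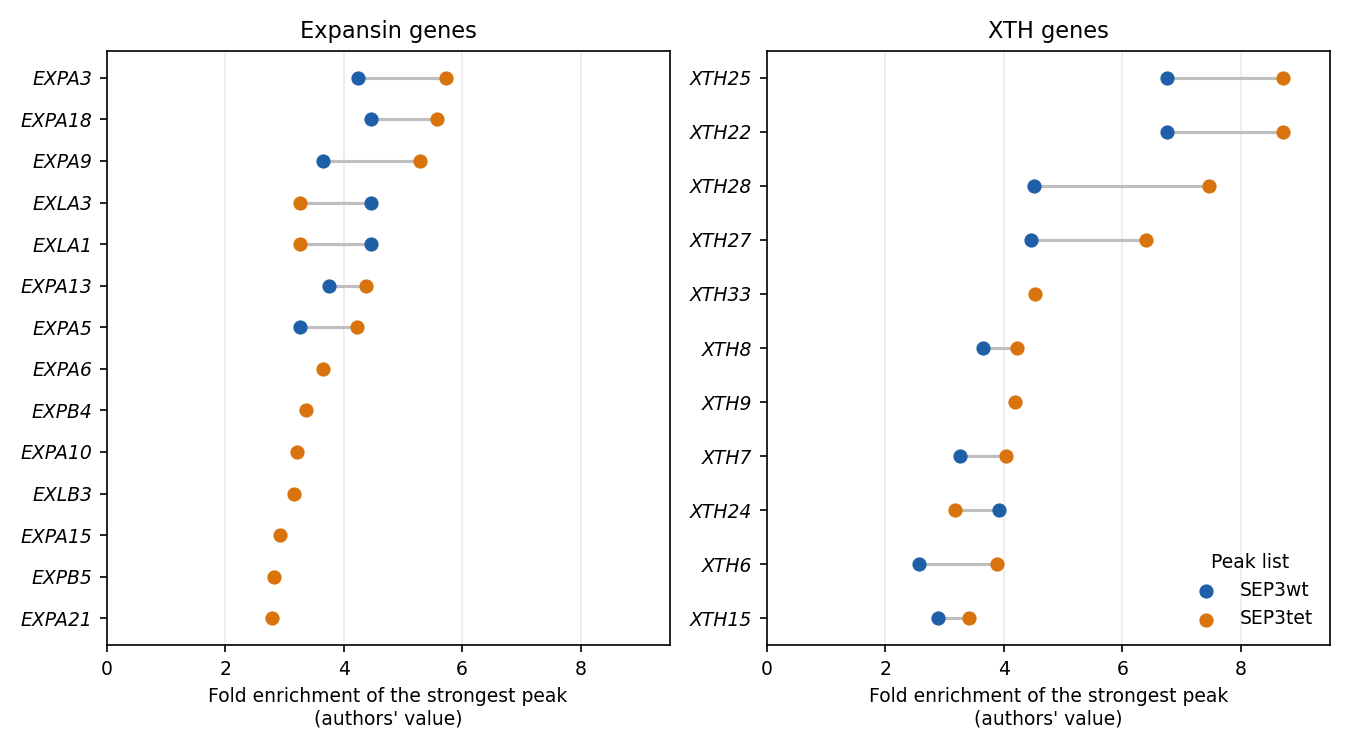
Authors' fold enrichment of the strongest peak of each expansin (left) and XTH gene (right) with a summit, 1 point per peak list. Grey lines join the SEP3wt and SEP3tet values of a gene and do not mark a tested difference, since the folds come from separate lists; XTH22 and XTH25 share the top peak (6.76 and 8.71), followed by XTH28 (4.52 and 7.46).

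No summit of either line lay in the window of 44 members (63.8%, beside 77.5% of all genes), 22 in each family. These were the EXPA genes EXPA1, EXPA2, EXPA4, EXPA7, EXPA8, EXPA11, EXPA12, EXPA14, EXPA16, EXPA17, EXPA20, EXPA22, EXPA23, EXPA24 and EXPA25, and the EXPB genes EXPB1, EXPB2, EXPB3 and EXPB6. The expansin-like genes without a summit were EXLA2, EXLB1 and EXLB2. Among the expansins without a summit are the stomatal expansin EXPA1, the seed germination expansin EXPA2 and the root hair expansin EXPA7. The XTH genes without a summit were XTH1 to XTH5, XTH10 to XTH14, XTH16 to XTH21, XTH23, XTH26 and XTH29 to XTH32. Among them is XTH4, an XTH of stem secondary growth. Just inside the limit of 3 kb lay EXPA3, at 2.91 kb in SEP3wt and 2.96 kb in SEP3tet. Just outside lay EXPA8, whose nearest summits were 3.24 kb (SEP3wt, fold 3.92) and 3.26 kb (SEP3tet, fold 2.74) away, and then XTH13.

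Taken peak by peak, the members rested on 19 SEP3wt and 30 SEP3tet peaks. In SEP3wt 17 of 19 (89.5%, 66.9 to 98.7) overlapped a SEP3tet peak, beside 84.7% of the whole list, and 18 of 30 SEP3tet peaks (60.0%, 40.6 to 77.3) met a SEP3wt peak, beside 53.3%. Both shares were close to those of their lists. The summits of the 17 SEP3wt peaks and their SEP3tet counterparts lay a median of 18 bp apart (1 to 67 bp). For each SEP3wt peak the counterpart was the overlapping SEP3tet peak with the nearest summit. The summits of these 17 pairs thus lay at nearly the same bases in both lines. An exception among the shared SEP3tet peaks was the narrower one at EXLA1, with its summit 672 bp from that of the SEP3wt peak. With summits within 100 bp required, 17 of 30 SEP3tet peaks (56.7%) were shared. These gaps were not compared with those of all shared peaks.

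Member peaks were of ordinary strength for their lists. The median fold was 3.92 in SEP3wt (2.56 to 6.76), beside 3.38 over the whole list, and 3.96 in SEP3tet (2.74 to 8.71), beside 3.65. In SEP3tet the 15 peaks counted for XTH genes had a median fold of 4.23 and the 15 counted for expansins one of 3.27. In SEP3wt the medians were 3.97 over 12 XTH peaks and 3.76 over 7 expansin peaks. The XTH peaks were thus the higher ones in the SEP3tet list, while in SEP3wt the families lay close together; neither difference was tested.

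**Figure D5:**
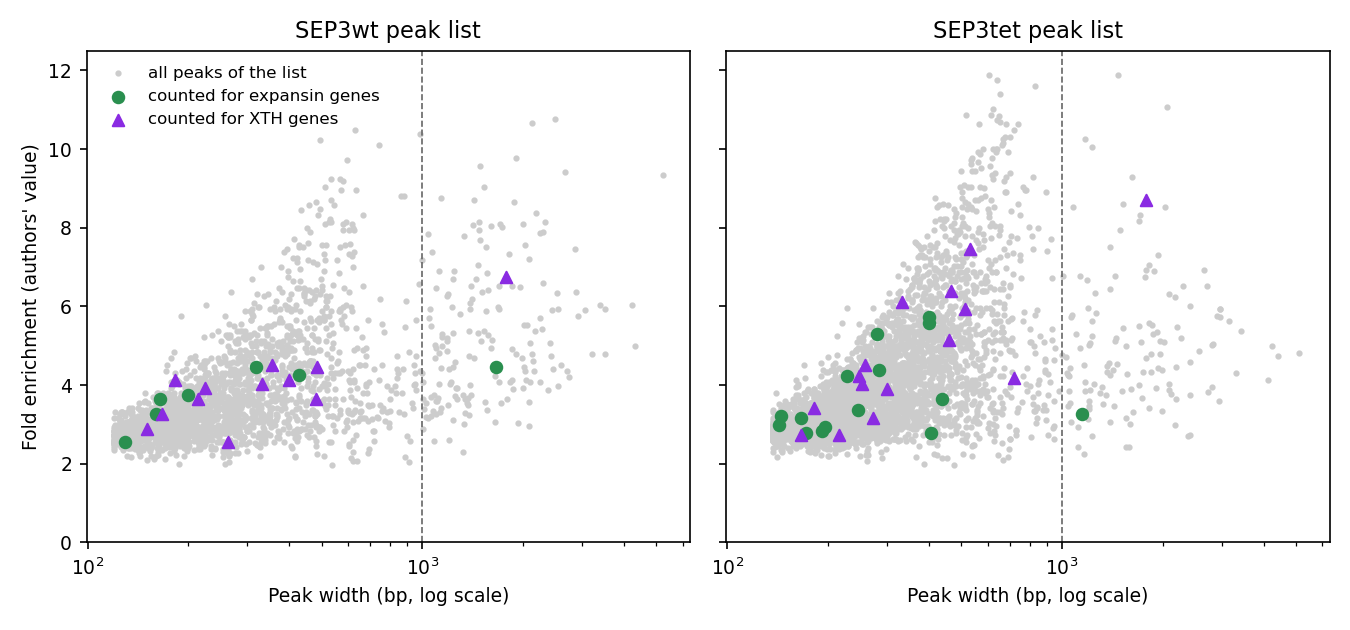
Width (bp, log scale) and authors' fold enrichment of every peak in the SEP3wt (left) and SEP3tet (right) list, in grey, with the peaks counted for expansin genes as circles and for XTH genes as triangles. The dashed line marks 1 kb; the XTH22 peak at 1783 and 1780 bp and an EXLA1 peak at 1656 and 1151 bp are the member peaks to its right.

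Peaks over 1 kb wide made up 10.5% of the SEP3wt and 6.67% of the SEP3tet member peaks. Of the whole lists, 7.82% of SEP3wt and 3.78% of SEP3tet peaks were over 1 kb wide. The member shares rest on 2 such peaks in each line, over XTH22 and EXLA1. Whether wide peaks over these genes hold background of the precipitation was not tested.

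Counted as pairs of a gene and a summit, members had a larger share in the gene body and a smaller share within 1 kb than all genes. This held in both lines and was not tested. Of 21 gene and summit pairs in SEP3wt, 28.6% lay in the gene body, 19.0% within 1 kb and 52.4% at 1 to 3 kb, beside 21.7%, 31.7% and 46.6% over all genes. Of 33 pairs in SEP3tet the shares were 27.3%, 18.2% and 54.5%, beside 19.2%, 33.8% and 47.0%. A summit near several genes enters several pairs. With each peak counted once, 36.8% of SEP3wt and 40.0% of SEP3tet member peaks had the summit in the body of any protein-coding gene. Of the peaks counted for any gene, 46.5% and 40.8% did, so the member share was not larger by this count. In SEP3wt 7 of the 16 called members, and in SEP3tet 12 of 25, had all their summits nearer to another gene. This was 43.8% and 48.0% of the called members, near the 50.8% and 50.1% of all called genes. By family, a summit nearest to the gene itself was found in SEP3wt for 6 of 33 XTH genes (18.2%) and 3 of 36 expansins (8.33%). The share of all genes was 6.74%. For SEP3tet the counts were 8 XTH genes (24.2%) and 5 expansins (13.9%), beside 10.6% of all genes. The expansin shares thus lay nearer to those of all genes, and the difference between families was not tested. Members with a summit in either line had a median gene length of 1.87 kb, those without one of 1.55 kb, and all protein-coding genes one of 2.08 kb.

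Other genes of wall assembly and remodelling, listed for comparison, were called at shares close to those of the expansin and XTH genes with all peaks counted. Of 40 such genes, 11 (27.5%, 14.6 to 43.9) had a SEP3wt summit and 15 (37.5%, 22.7 to 54.2) a SEP3tet summit, all 11 also in SEP3tet, against the shares of 13.7% and 21.2% of all genes given above. With the SEP3tet list cut to the length of the SEP3wt list, 6 of these genes (15.0%) had a SEP3tet summit, fewer than the 11 in SEP3wt. Among expansin and XTH genes 19 (27.5%) did. The 21.2% of the uncut list is no reference for these shares. Over all genes 3.14% were then SEP3wt-only and 4.07% SEP3tet-only, so the SEP3tet share lay slightly above the 13.7% of SEP3wt. The 15.0% stood close to that level and the 27.5% above it, and the difference between the gene sets was not tested. XXT5, a xylosyltransferase that builds xyloglucan, had a gene-body peak with folds of 2.78 in SEP3wt and 3.27 in SEP3tet. XYL1, a xylosidase that trims xyloglucan, had a gene-body peak with folds of 3.76 and 4.33. CESA1, a cellulose synthase subunit, had folds of 3.25 and 7.55 from a peak 1 to 3 kb away that lay nearest to SHS1.

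CESA5, another subunit of this enzyme, had folds of 2.45 and 2.82 within 1 kb, and KOR1, an endoglucanase needed for cellulose formation, 3.48 and 3.22. FUT1, which adds fucose to xyloglucan, and the cellulose synthase genes CESA2 and CESA6 had summits in SEP3tet only, with folds of 2.83, 3.27 and 3.31. The summit at FUT1 lay nearest to AT2G03240 and AT2G03230, whereas those of CESA2 and CESA6 lay in the gene body. Of the 8 genes named so far, XYL1 had the highest fold in SEP3wt and CESA1 the highest in SEP3tet, through a peak nearest to its neighbour. Of the 15 genes with a PME symbol, meant for pectin methylesterases, 3 (20.0%) had a SEP3wt and 4 (26.7%) a SEP3tet summit. These shares stood beside 13.7% and 21.2% of all genes. In both lines the strongest summit of PME2 lay nearest to PME1, with the same folds as at PME1 (2.78 and 2.69). Further peaks lay at COB, which orients cellulose deposition (folds of 6.53 and 9.19, 1 to 3 kb away and nearest to AGL8, the fruit regulator FUL), and at FER, a receptor kinase of wall sensing (5.22 and 6.83, within 1 kb and nearest to FER itself). COB, FER, PME1 and PME2 are named here after their values were seen.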

How the data were processed

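The data were chromatin immunoprecipitation sequencing of inflorescences, 6 samples in all. The submitters' processing notes name genome build TAIR10 and the tools MACS2 2.2.7.1, Bowtie2 2.2.5, deepTools and Trimmomatic 0.36. Not given in the sources used here are the way replicates were combined and the control used to call peaks. The deposited fold enrichment is the authors' ratio of signal to background, per the narrowPeak layout. The deposited −log10 q is that of the authors' peak caller; the deposited −log10 p and the deposited display score entered no result. Depth per sample is unknown.

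Members were matched by symbol or synonym in RefSeq's gene table for TAIR10.1, which gives no strand, exons or UTRs; distances are to the gene ends in that table. Summits lay in gene bodies in 45.3% (SEP3wt) and 39.8% (SEP3tet) of cases, against 58.5 to 64.0% and 59.7 to 64.0% when shifted by 2, 5 or 10 kb, so the positions of both builds were used together. Peak sequences were not used here. Peaks overlapped where they shared at least 1 bp. Shares carry exact (Clopper-Pearson) 95% intervals (scipy 1.17.1), for counting error only. The counting steps were tested on simulated peaks.

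Every member with a summit was named, and up to 8 of the other cell wall genes in list order; 25 of 27 names of that list, plus 15 PME genes, were found. Members and lists were chosen with earlier results of these data known. Alternatives were windows of 1 kb and 0 kb, the nearest gene, −log10 q of at least 10, equal numbers of strongest peaks, and other overlap rules; leaving out peaks over 1 kb wide and adding EXP26 were chosen after seeing the data.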

Additional observations from a re-analysis of the deposited data

How the results depend on the processing

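In what follows, pairs of counts are for SEP3wt and then SEP3tet. Most counts by family, in both lines or in 1 line only have no share of all genes beside them. They show how the counts moved between settings and are not set against the genome. With 1 kb to either side, 9 and 12 members had a summit, 7 in both lines, 2 in SEP3wt only and 5 in SEP3tet only; expansins gave 3 and 5, and XTH genes 7 in SEP3tet. With gene bodies only, 6 and 7 members had a summit, 5 in both lines, 1 in SEP3wt only and 2 in SEP3tet only; expansins gave 2 and 3, XTH genes 4 and 4, and other cell wall genes 3 and 6. With the nearest gene only, 9 and 13 members had a summit, 8 in both, 1 in SEP3wt only and 5 in SEP3tet only, and expansins gave 3 and 5. With −log10 q of at least 10, 8 and 8 members had a summit, 6 in both, 2 in SEP3wt only and 2 in SEP3tet only; expansins gave 4 and 3, XTH genes 4 and 5, and other cell wall genes 2 and 4. With equal numbers of strongest peaks, 1 member was in SEP3wt only and 4 in SEP3tet only, expansins gave 9 and other cell wall genes 6 in SEP3tet. Windows, nearest genes and thresholds can only remove summits by their construction. The other 40 of 81 recomputed counts and shares stayed within 1.5 times, or within the interval of the share, among them every setting of overlap, the lists without peaks over 1 kb wide (12 and 23 members) and the members with EXP26 added. No paired analysis was possible because each line has 1 peak list and no values per replicate, and no replicate could be left out. Without depth or replicate values, a gene called in 1 line alone cannot be told from one just under the threshold in the other.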
